A study of Mus musculus with 16 samples.

Results

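Lct, Sis, Mgam and Treh encode the disaccharidases of the small intestinal brush border. They were taken from the count table by the Ensembl identifiers that carry these symbols, and are 4 of its 21965 genes. The table holds RNA-seq read counts of the ileum of 16 male C57BL/6 mice, with 1 library per mouse. The mice were 8 to 10 weeks old when feeding began and were sampled at its end, 6 weeks later. The PF groups held 4 WT and 4 fat-1 mice and the EtOH groups 3 WT and 5 fat-1 mice. EtOH-fed mice received a liquid diet in which ethanol was raised stepwise to 6% (v/v) and held there for 3 weeks. PF mice were pair-fed the same diet with maltose dextrin in place of the ethanol calories, so the control diet itself carried a disaccharidase substrate. The fat-1 mice were heterozygous for a C. elegans n3 desaturase transgene that acts in all tissues and turns n6 into n3 PUFAs, and WT mice were their littermates. The labels write this genotype Fat1+/-, which is not the mouse cadherin gene Fat1, and as the transgene is not a row of the table the genotype could not be checked in it.

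The disaccharidases are large glycosidases held in the microvillus membrane of enterocytes, where they split sugars into the monosaccharides that transporters take up. Lactase (Lct) cleaves lactose, sucrase-isomaltase (Sis) cleaves sucrose and the branch points of starch fragments, maltase-glucoamylase (Mgam), its close relative, releases glucose from starch fragments and maltose, and trehalase (Treh) cleaves trehalose. In adult rodents lactase is a gene of the jejunum that falls after weaning and is low in the ileum, whereas sucrase-isomaltase and maltase-glucoamylase are made along most of the small intestine. In bulk ileum, fewer enterocytes and less mRNA per enterocyte cannot be told apart.

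The promoter windows of the 4 genes are shown first, because the transcription factors known to act on enterocyte genes are described with the results below. Each window is RefSeq sequence of GRCm38.p6, 250 bases before to 50 bases after the gene's start, written 5′ to 3′ on the gene's strand. Capitals mark matches, on either strand, to 4 short motifs. GATAA is the core bound by GATA factors. The letters TTTAT are those of the caudal homeobox factors Cdx1 and Cdx2. A site of hepatocyte nuclear factor 4 is searched as CAAAGTCCA. The promoter element known as the TATA box is searched as TATAAA. The windows lie at chr1:128328269-128328568 on the minus strand for Lct, chr3:72967814-72968113 on the minus strand for Sis, chr6:40628581-40628880 on the plus strand for Mgam and chr9:44672983-44673282 on the plus strand for Treh.
Lct: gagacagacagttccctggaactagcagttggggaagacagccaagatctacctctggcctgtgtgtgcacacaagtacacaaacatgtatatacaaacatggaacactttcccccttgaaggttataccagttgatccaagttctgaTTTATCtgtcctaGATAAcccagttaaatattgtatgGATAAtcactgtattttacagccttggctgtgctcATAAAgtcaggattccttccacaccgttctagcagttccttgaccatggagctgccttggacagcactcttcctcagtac
Sis: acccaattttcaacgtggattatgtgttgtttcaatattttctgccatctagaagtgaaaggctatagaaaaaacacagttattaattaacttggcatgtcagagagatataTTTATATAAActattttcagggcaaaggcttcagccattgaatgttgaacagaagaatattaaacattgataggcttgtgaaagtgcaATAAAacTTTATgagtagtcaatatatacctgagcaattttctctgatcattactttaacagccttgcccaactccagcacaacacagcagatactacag
Mgam: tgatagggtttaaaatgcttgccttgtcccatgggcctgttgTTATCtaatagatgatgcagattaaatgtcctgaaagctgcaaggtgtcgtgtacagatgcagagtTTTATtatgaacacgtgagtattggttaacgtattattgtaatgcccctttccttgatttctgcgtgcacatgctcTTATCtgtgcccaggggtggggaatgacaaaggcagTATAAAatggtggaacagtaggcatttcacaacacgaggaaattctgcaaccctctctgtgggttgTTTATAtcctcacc
Treh: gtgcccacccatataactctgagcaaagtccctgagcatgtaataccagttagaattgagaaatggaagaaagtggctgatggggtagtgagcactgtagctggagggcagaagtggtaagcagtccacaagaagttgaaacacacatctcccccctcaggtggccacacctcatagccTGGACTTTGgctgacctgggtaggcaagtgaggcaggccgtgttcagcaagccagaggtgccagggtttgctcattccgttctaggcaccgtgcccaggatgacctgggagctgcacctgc

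The Lct window held 3 GATAA matches, starting at positions -101, -89 and -65 from the gene's start, a number reached by 0.938% of the 32851 windows of the same length. It also held 2 TTTAT matches, a number reached by 16.3% of windows, of which that at -102 overlaps the first GATAA match. The Sis window held no GATAA match but 4 TTTAT matches, a number reached by 2.92% of windows. The 2 TATAAA matches of Sis, at -138 and -134, overlap each other and the TTTAT matches there, and 2.36% of windows have as many. Mgam had 2 GATAA matches (5.27% of windows), 3 TTTAT matches (6.89%) and a TATAAA match at -30 that overlaps one of them. Another TATAAA match of Mgam lay after the start, at position 37. The Treh window matched CAAAGTCCA once, at -71, as did 0.475% of windows, and none of the other 3 motifs. A match is a run of letters and not a measured binding site.

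The libraries held 8422645 to 11438539 counted reads. Several libraries stood apart in markers of gut position. The summed level of the 8 large intestine genes was 11890 and 12790 CPM in fat-1 EtOH replicates 3 and 4 and 4757 CPM in WT EtOH replicate 2, against 106.5 to 459.4 CPM in the other 13 mice. Most of it was Car1, at 11160, 12210 and 4041 CPM, while the hindgut genes Hoxa13, Hoxb13 and Hoxd13 were under 1 CPM in all 16 mice. The ileal bile acid transporter gene Slc10a2 was nearly absent from fat-1 PF replicates 2 and 4 (7.58 and 3.56 CPM), against 394.2 to 1382 CPM in the other 14 mice. These 2 mice also had the highest sums of 8 proximal small intestine genes, 47870 and 48070 CPM, where the other PF mice had 1913 to 13500 CPM and EtOH-fed mice 207.7 to 585 CPM. The EtOH and genotype effects on the 4 genes are given with and without these 5 mice. Without them the PF mice still had proximal sums of 1913 to 13500 CPM, against 421.8 to 585 CPM in EtOH-fed mice. Differences between the diets in the 4 genes therefore cannot be told apart from differences in gut position. Library numbers 1 to 8 were all PF and 9 to 16 all EtOH. The labels do not say what these numbers mark, and any effect tied to them cannot be told apart from that of diet.

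In PF mice, sucrase-isomaltase mRNA ranked between 5 and 13 by CPM among all genes of the table, and maltase-glucoamylase mRNA between 11 and 22. Sis (ENSMUSG00000027790) lies on the minus strand at chr3:72888557-72967863 of GRCm38. Its level, in CPM (read counts scaled to a common library size), was 8523, 6726, 7485 and 3932 in WT PF mice and 8360, 8778, 5263 and 6246 in fat-1 PF mice. It was 2797, 1904 and 3046 CPM in WT EtOH mice and 2349, 4589, 96.2, 96.1 and 1875 CPM in fat-1 EtOH mice. Within each genotype every EtOH-fed mouse lay below every PF mouse, but fat-1 EtOH replicate 2 lay above WT PF replicate 4. The mean of PF mice was 6666 ± 1966 CPM in WT (SD, n = 4) and 7161 ± 1683 CPM in fat-1 (n = 4), and that of EtOH-fed mice 2583 ± 600.5 CPM in WT (n = 3) and 1801 ± 1864 CPM in fat-1 (n = 5). The large SD of the last group came with the 2 mice near 96 CPM, which are those with the highest large intestine sums.

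Maltase-glucoamylase mRNA had the smallest spread between PF mice of the 4. Mgam (ENSMUSG00000068587) lies on the plus strand at chr6:40628831-40769123. It was at 4893, 4010, 3961 and 3084 CPM in WT PF mice and at 4531, 4946, 3505 and 4398 CPM in fat-1 PF mice. The EtOH-fed mice had 2535, 2445 and 3040 CPM (WT) and 2607, 3372, 275.6, 300.6 and 1962 CPM (fat-1). Again no EtOH-fed mouse reached the PF mice of its own genotype, although fat-1 EtOH replicate 2 was above WT PF replicate 4. The means of PF mice were 3987 ± 739 CPM (WT) and 4345 ± 607 CPM (fat-1), against 2673 ± 321 CPM (WT) and 1704 ± 1385 CPM (fat-1) with EtOH.

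Trehalase mRNA was lower and varied more. Treh (ENSMUSG00000032098) lies on the plus strand at chr9:44673233-44686305. Its level was 234.3, 223.1, 156.3 and 109.8 CPM in WT PF mice, and 249.7, 804.3, 248.9 and 603 CPM in fat-1 PF mice. WT EtOH mice had 94.6, 92.1 and 64.5 CPM, and fat-1 EtOH mice 91.7, 128.5, 1.15, 1.87 and 84.0 CPM. All fat-1 PF mice were above all WT PF mice, the closest being 248.9 CPM in fat-1 and 234.3 CPM in WT. How many of all genes part the PF groups in this way was not counted. Within each genotype the diets did not overlap. The means of PF mice were 181 ± 58.6 CPM (WT) and 476.5 ± 275 CPM (fat-1), and those of EtOH-fed mice 83.7 ± 16.7 CPM (WT) and 61.4 ± 57.2 CPM (fat-1). Of 2190 read-length windows of 75 bases in its exons, 6 also occur in another gene, and 2 of its exon bases overlap Phldb1 on the other strand. No such window was shared for Lct, Sis or Mgam.

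Lactase mRNA was abundant in most PF mice and was counted 2 to 27 times per library in EtOH-fed mice. Lct (ENSMUSG00000026354) lies on the minus strand at chr1:128284756-128328318. Its level was 1193, 600.4, 656.5 and 78.3 CPM in WT PF mice and 796.9, 2979, 649.7 and 2004 CPM in fat-1 PF mice. In WT EtOH mice it was 0.269, 0.420 and 0.420 CPM, which are 3, 4 and 5 reads. In fat-1 EtOH mice it was 0.570, 2.30, 0.656, 0.625 and 0.171 CPM, which are 6, 27, 8, 7 and 2 reads. The PF and EtOH-fed mice did not overlap in either genotype or across them. At these depths 3 reads were 0.246 to 0.421 CPM, so Lct of most EtOH-fed mice was near this limit and their order is not resolved.

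**Figure D1:**
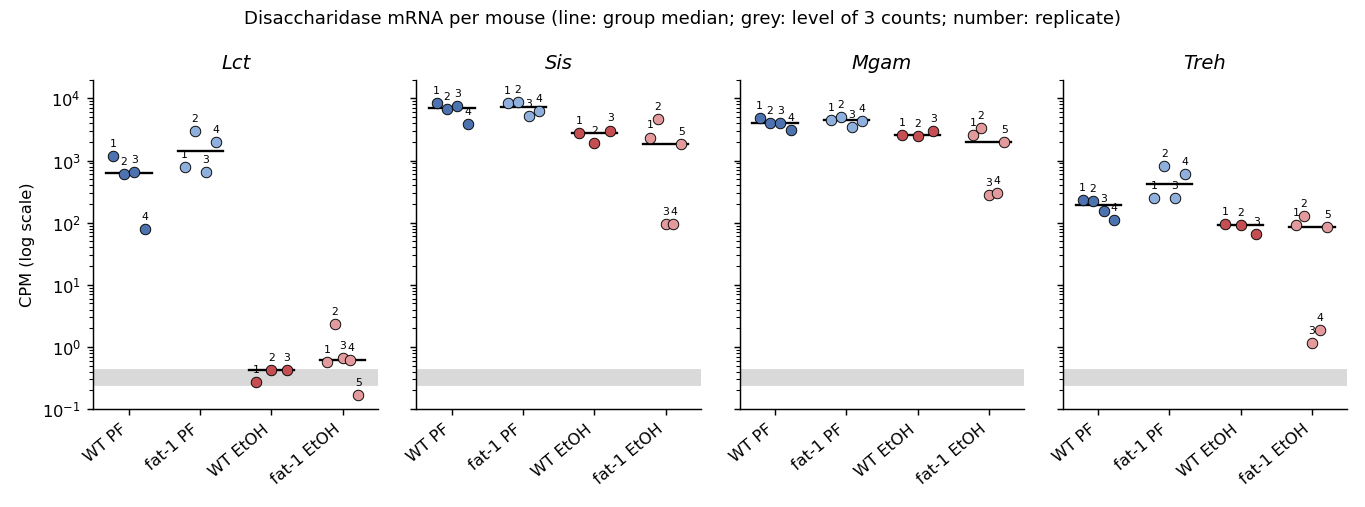
Level of each disaccharidase gene in each mouse, in CPM on a log axis. Points are mice with their replicate number, lines are group medians and the grey band is the level of 3 counts. EtOH-fed mice reach at most 2.30 CPM of Lct where the lowest PF mouse has 78.3 CPM, while Sis, Mgam and Treh of fat-1 EtOH replicates 3 and 4 lie far below the rest of their group.

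The spread between PF mice differed by gene. The highest PF mouse had 38.1 times the Lct of the lowest, against 7.32 times for Treh, 2.23 times for Sis and 1.6 times for Mgam. Lct and Treh were highest in fat-1 PF replicates 2 and 4, the 2 mice with little Slc10a2. Sis and Mgam were also highest in fat-1 PF replicate 2 (8778 and 4946 CPM), close to WT PF replicate 1 (8523 and 4893 CPM). In fat-1 PF replicate 4 they were within the range of the other PF mice. Lct, Sis, Mgam and Treh were all lowest in WT PF replicate 4, which had the lowest proximal sum of the PF mice (1913 CPM) and the highest Slc10a2 (1272 CPM). Across all 16 mice, the edgeR dispersion of each of the 4 genes was high, at the 93.9th percentile (Mgam) to the 98.8th (Treh) of the 13811 genes tested. The part of gut position in this spread was not tested.

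Per length of exon sequence, Sis had the highest and Mgam the next highest level in all 8 PF mice. Levels divided by exon length (6406 bp for Lct, 7464 bp for Sis, 8704 bp for Mgam and 2048 bp for Treh) gave Sis 42.9 to 61.3% of the sum of the 4, and Mgam 21.8 to 37.4%. Lct made up 1.29 to 17.9% and Treh 4.66 to 15.1%, both with their largest shares in fat-1 PF replicates 2 and 4. On this scale Lct was above Treh in WT PF replicates 1 and 3 and fat-1 PF replicates 1, 2 and 4, and below it in the other 3 PF mice. In EtOH-fed mice Lct made up at most 0.227%, Treh made up 1.24 to 7.92%, and Mgam was above Sis in WT EtOH replicate 2 and fat-1 EtOH replicates 3 and 4. Of all reads counted, the 4 genes together took 0.728 to 1.48% in PF mice, 0.442 to 0.837% in 6 of the EtOH-fed mice, and 0.0467 and 0.0495% in fat-1 EtOH replicates 3 and 4.

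The balance of sucrase-isomaltase and maltase-glucoamylase mRNA was lower in EtOH-fed mice, though not past the adjusted threshold. The ratio of Sis to Mgam per length was 1.49 to 2.20 in WT PF and 1.66 to 2.15 in fat-1 PF mice, and 0.908 to 1.29 in WT EtOH and 0.373 to 1.59 in fat-1 EtOH mice. Being a ratio within a library, it does not depend on how libraries were scaled. No EtOH-fed mouse reached the PF mice of its genotype, and the exact permutation test on the log2 ratio gave p = 0.0571 in WT mice and 0.0159 in fat-1 mice, the smallest values these group sizes allow (two-sided). After adjustment over the 12 ratio tests these were 0.114 and 0.0636, so neither passed 0.05. The lowest ratios, 0.407 and 0.373, were those of fat-1 EtOH replicates 3 and 4. Without all 5 mice that stood apart, the geometric means of the ratio were 1.23 with EtOH against 1.90 in WT mice and 1.23 against 1.94 in fat-1 mice, and the groups still did not overlap. The ratio of Treh to Mgam was lower with EtOH in fat-1 mice (geometric mean 0.0729 against 0.411, exact permutation p = 0.0159, adjusted 0.0636), and in WT mice the groups overlapped (0.132 against 0.187, exact permutation p = 0.229). The difference in fat-1 mice was smaller without the mice that stood apart: in fat-1 EtOH replicates 3 and 4 the ratio was 0.0177 and 0.0265, and in fat-1 PF replicates 2 and 4 it was 0.691 and 0.583. Without these 4 mice the geometric means were 0.164 against 0.266, with 3 and 2 mice and an exact permutation p of 0.2, the smallest these numbers allow.

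**Figure D2:**
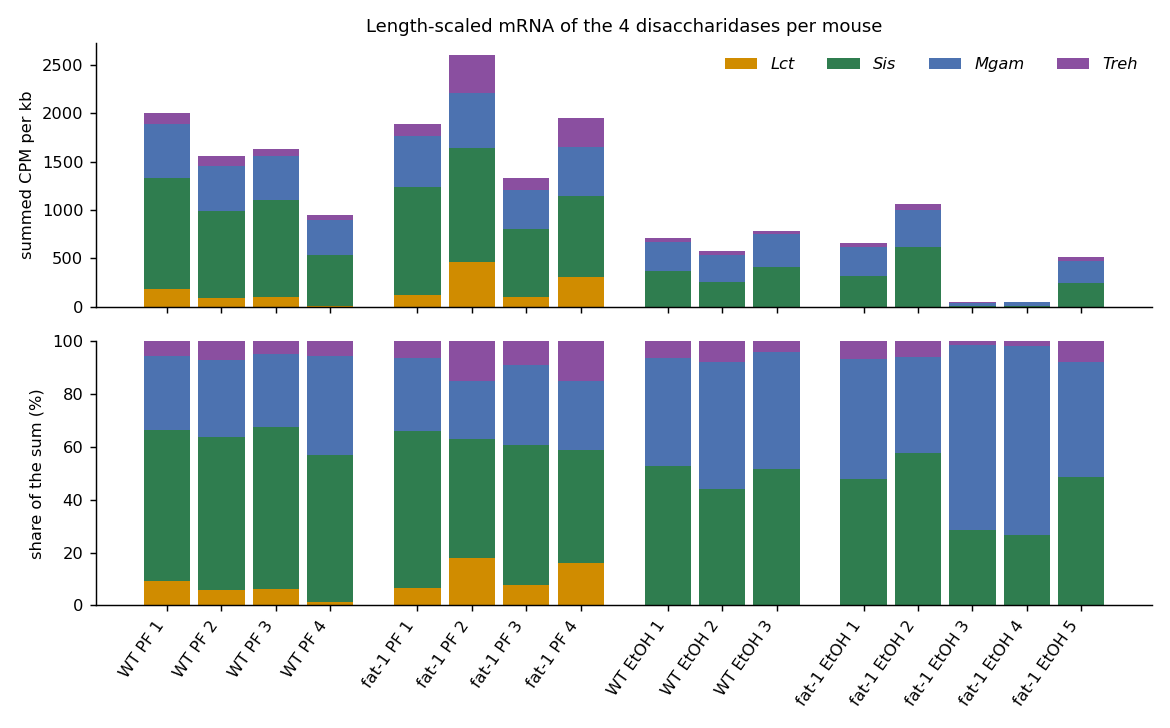
Upper bars show the summed level of the 4 genes in CPM per kb of exon in each mouse, and lower bars the share of each gene in that sum in percent. Lct has a visible share in PF mice and at most 0.227% in EtOH-fed mice, and Mgam has 70.0 and 71.3% of the sum in fat-1 EtOH replicates 3 and 4.

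The diets were compared first in WT mice, WT EtOH against WT PF. Lct changed by -10.70 on the log2 scale (SE 1.22, edgeR quasi-likelihood test, Benjamini-Hochberg adjusted p = 0.00273), and it had the most negative change of the 13811 genes tested. In reads, 22887 in the 4 PF mice stood against 12 in the 3 EtOH-fed mice, a 1698-fold difference after scaling with a 95% interval of 971.9 to 3287 for counting error alone. Sis, Mgam and Treh did not pass the test: their log2 changes were -1.37 (95% interval -3.41 to 0.68, edgeR adjusted p = 0.533), -0.58 (-1.97 to 0.82, 0.728) and -1.11 (-3.37 to 1.15, 0.664). Thus 1 of the 4 genes was called, where 0.0796% of all genes tested were called in this comparison. All 4 genes were lower in every WT EtOH mouse than in every WT PF mouse, a pattern held by 12.1% of the genes tested. With 4 and 3 mice the exact permutation test of 1 gene cannot go below p = 0.0571, which all 4 genes had. The Lct call was lost without WT EtOH replicate 1 (-10.51, edgeR adjusted p = 0.0668) or replicate 3 (-10.81, 0.0626), with little change in its size. In each of these fits 0% of all genes were called. In a fit of the WT mice alone, Sis was called as well (-1.36, edgeR adjusted p = 0.0269), where 8.32% of all genes were.

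In fat-1 mice, Lct and Treh were called lower with EtOH. Lct fell by 10.83 (SE 0.93, edgeR adjusted p = 7.55e-05) and Treh by 2.95 on the log2 scale (SE 0.94, adjusted p = 0.0238), a 7.75-fold lower mean for Treh. Sis changed by -1.99 (95% interval -3.74 to -0.24, edgeR adjusted p = 0.0685) and Mgam by -1.35 (-2.56 to -0.14, 0.0736), which missed the threshold. So 2 of the 4 genes were called, against 37.4% of all genes tested, and 4 of 4 did not overlap between the diets, as for 13.4% of all genes. The exact permutation p of each of the 4 genes was 0.0159, the smallest possible with 4 and 5 mice, and 0.0636 after adjustment over 16 tests. The edgeR fold follows the arithmetic means. On the mean of log2(CPM + 0.5), in which the 2 low mice weigh more, the differences were -10.10, -3.29, -2.0 and -4.32 for Lct, Sis, Mgam and Treh. Without fat-1 EtOH replicates 3 and 4 they were -10.04, -1.36, -0.74 and -2.06, and without fat-1 PF replicates 2 and 4 as well they were -9.16, -1.28, -0.62 and -1.32. The Treh call was lost without fat-1 PF replicate 2 (-2.56, edgeR adjusted p = 0.0654), where 28.5% of all genes were called. All 4 genes were called without fat-1 EtOH replicate 2, where 39.4% of all genes were.

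Averaged over the genotypes, the EtOH effect was -10.77 for Lct (SE 0.83, edgeR adjusted p = 1.62e-05), -2.03 for Treh (SE 0.72, 0.0399), -1.68 for Sis (SE 0.64, 0.0523) and -0.96 for Mgam (SE 0.44, 0.0961) on the log2 scale. So 2 of the 4, Lct and Treh, were called, where 35.9% of all genes were. The intervals of Treh, Sis and Mgam overlap, so their order is not resolved by this fit, whereas that of Lct (-12.53 to -9.0) lies apart. Lct was the 1 gene of the 4 in which all 8 EtOH-fed mice were below all 8 PF mice, as were 4.66% of all genes. The Treh call was lost, at edgeR adjusted p = 0.0567 to 0.0957, on leaving out any 1 of WT PF replicates 1, 2 and 3, fat-1 PF replicates 2 and 4, or WT EtOH replicates 1, 2 and 3, with log2 changes from -2.08 to -1.83. In these fits 26.9 to 31.6% of all genes were called.

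The genotypes were then compared within each diet. In PF mice, fat-1 had more Treh and Lct on average, by 1.40 (95% interval -0.66 to 3.46, edgeR adjusted p = 0.59) and 1.35 (-0.09 to 2.79, 0.429) on the log2 scale, while Sis differed by 0.10 (-1.72 to 1.93) and Mgam by 0.12 (-1.15 to 1.40). None of the 4 was called by edgeR, and 0 of the 4 had an unadjusted p under 0.05. Of all genes edgeR called 0.0%, with 1758 at an unadjusted p under 0.05, while DESeq2 called 189 and limma voom 31, none of them a disaccharidase. The lowest Treh of fat-1 PF mice (248.9 CPM) was just above the highest of WT PF mice (234.3 CPM). For Treh the exact permutation test gave p = 0.0286, the smallest possible, and 0.0915 after adjustment over 16 tests. Without fat-1 PF replicates 2 and 4 the differences were 0.46 for Treh and 0.19 for Lct. In EtOH-fed mice the genotype differences were 1.21 for Lct, -0.52 for Sis, -0.65 for Mgam and -0.45 for Treh, and 0 of 4 were called or had an unadjusted p under 0.05 in edgeR, where 0.00724% of all genes (1 gene) were called. DESeq2 called 5 genes and limma voom 1, none of them of the 4. Without the 3 mice with large intestine markers, Sis differed by 0.011 and Treh by 0.35, with the sign turned.

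Whether the EtOH effect differed by genotype was tested with the interaction. Its estimates were -0.14 (95% interval -3.81 to 3.53) for Lct, -0.62 (-3.23 to 1.99) for Sis, -0.77 (-2.60 to 1.05) for Mgam and -1.84 (-4.75 to 1.06) for Treh on the log2 scale. No gene of the 4 and 0.0% of all genes passed in edgeR, DESeq2 or limma voom, with 1141 genes and 0 of the 4 at an unadjusted p under 0.05 in edgeR. That Treh was called in one genotype and not in the other is therefore not shown to be a difference between them, and at these group sizes the intervals still hold differences of several log2 units.

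**Figure D3:**
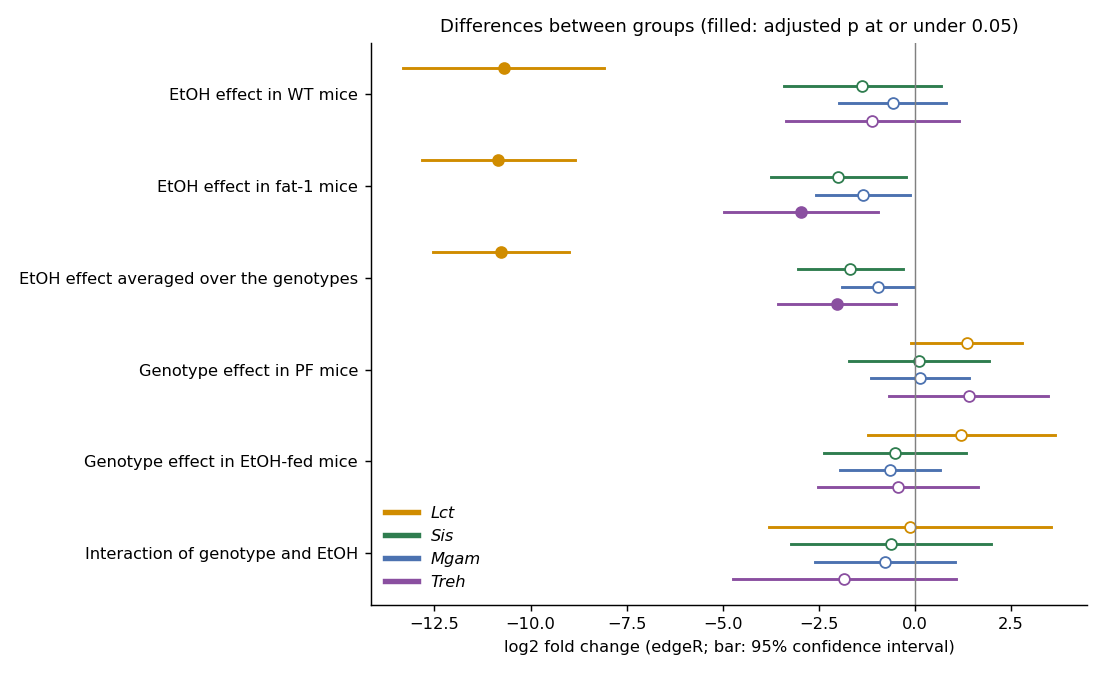
Log2 fold change of each disaccharidase gene in the 6 comparisons, as points with 95% confidence intervals from edgeR. Filled points passed an adjusted p of 0.05. The intervals of Lct end at or below -8.08 in the 3 EtOH comparisons, and those of Sis, Mgam and Treh cross 0 in WT mice and in both genotype comparisons.

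The calls of Sis, Mgam and Treh changed with the 5 mice that stood apart, and those of Lct did not. Without the 3 EtOH-fed mice with large intestine markers, the changes in fat-1 mice were -1.25 for Sis (edgeR adjusted p = 0.0149), -0.68 for Mgam (0.0276), -2.19 for Treh (0.00534) and -10.56 for Lct (0.00195), so 4 of 4 were called with smaller changes, where 29.7% of all genes were called. Averaged over the genotypes, all 4 were called as well, against 32.9% of all genes, at -1.22, -0.60, -1.69 and -10.67 for Sis, Mgam, Treh and Lct. Without fat-1 PF replicates 2 and 4 alone, Lct was called and the other 3 were not, in fat-1 mice (13.9% of all genes called) and on average (23.9%), and Treh in fat-1 mice changed by -2.01 (edgeR adjusted p = 0.204). Without all 5 mice, the averaged changes were -10.10 (Lct, edgeR adjusted p = 0.00114), -1.23 (Treh, 0.00451), -1.19 (Sis, 0.012) and -0.55 (Mgam, 0.0371), and all 4 were called, where 27.6% of all genes were. In that set, 1 of the 4 (Lct) was called in WT mice, where 3.41% of all genes were, and 2 (Lct and Treh) in fat-1 mice, where 11.9% were, so Sis and Mgam passed in neither genotype alone. With 6 PF mice (4 WT, 2 fat-1) and 5 EtOH-fed mice (2 WT, 3 fat-1), the effects in WT and fat-1 mice were -1.18 and -1.20 for Sis, -0.51 and -0.59 for Mgam, and -1.17 and -1.28 for Treh. Without all 5 mice, 6 of the 8 proximal small intestine genes were still called lower in the averaged effect (edgeR, median -3.79), where 14.7% of all genes were. These sets of mice were chosen after the data were seen.

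**Figure D4:**
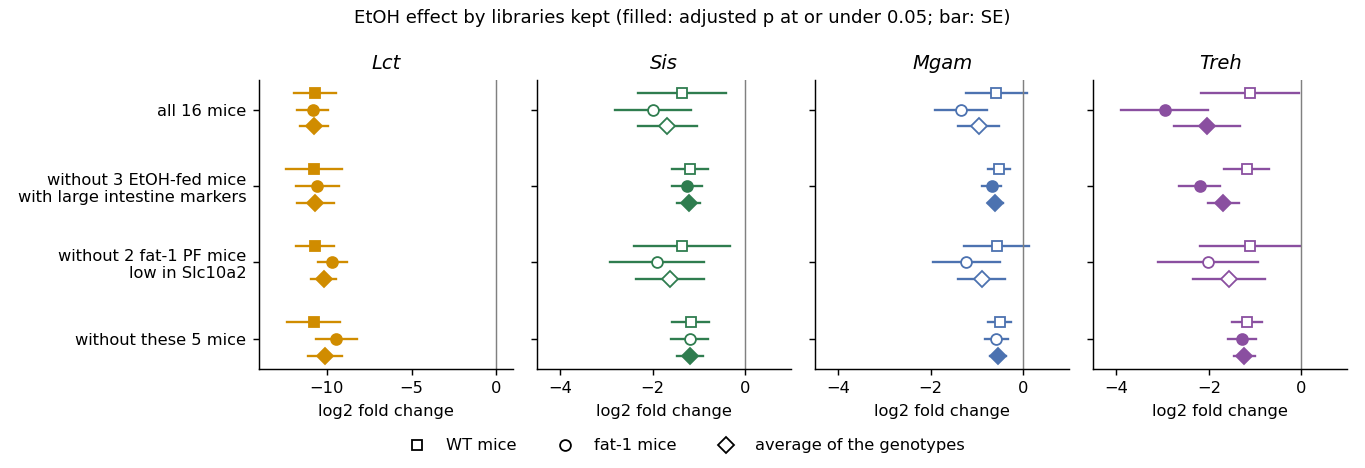
EtOH effect on each disaccharidase gene, in log2 fold change with its SE, with all 16 mice and with the mice that stood apart left out. Squares are WT mice, circles fat-1 mice and diamonds the average, and filled symbols passed an adjusted p of 0.05. Leaving out the 3 EtOH-fed mice narrows the bars of Sis, Mgam and Treh, and every estimate stays below 0.

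Most genes listed for the uptake and further use of the released sugars moved in the same direction. Of the 16 genes of sugar absorption and fructose breakdown, 14 fell and 1 rose in the averaged EtOH effect (edgeR), with a median log2 change of -1.98. Of all genes 17.6% fell and 18.3% rose in this comparison, with a median of 0.04. The largest decreases were those of Slc2a2, the basolateral hexose transporter GLUT2 (-5.49), Slc2a7, another facilitative transporter (-4.16), Slc5a4b, a member of the SGLT family (-4.01), G6pc, glucose-6-phosphatase (-3.33), and Slc5a4a (-2.50). Slc5a1, the glucose and galactose cotransporter SGLT1, fell by 1.63 (adjusted p = 0.0105 in edgeR), and Slc2a1, the transporter GLUT1, rose by 1.71 (0.0103). In WT mice alone 0 of the 16 were called by edgeR, where 0.0796% of all genes were, and the median was -1.33. An unadjusted edgeR p under 0.05 was held by 8 of the 16 and by 1953 of the 13811 genes tested. In fat-1 mice 14 fell, as did 18.8% of all genes, and 1 rose, with a median of -2.70. Without the 5 mice that stood apart, 14 fell, as did 14.7% of all genes, and 1 rose in the averaged effect, with a median of -1.31, and the change of Slc2a1 was 0.47. Without fat-1 PF replicates 2 and 4 alone there were fewer calls. In fat-1 mice 7 fell and 0 rose (median -1.90), where 13.9% of all genes were called in either direction. In the averaged effect 11 fell and 0 rose (median -1.64), where 11.8% of all genes fell. There Slc5a1 (-1.40, edgeR adjusted p = 0.0544) and Slc2a1 (1.63, 0.0536) did not pass.

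Of the other enzymes of the same membrane, some fell and most did not pass the test. Of 18 brush border peptidases, phosphatases and related hydrolases tested, of 19 listed, 7 fell and none rose in the averaged effect (edgeR, median -1.05), where 17.6% of all genes fell and 35.9% were called in either direction. These were led by Plb1, a phospholipase (-7.11), the ectonucleotidase Enpp3 (-5.59), the alkaline sphingomyelinase Enpp7 (-4.5), the alkaline phosphatase Akp3 (-3.59) and the peptidase neprilysin, Mme (-2.90). The other 11 did not pass, among them aminopeptidase N (Anpep, -0.20) and dipeptidyl peptidase 4 (Dpp4, -0.53). Of 15 genes of microvillus structure, 4 fell and none rose, against the same shares of all genes, with a median of -0.34: Slc9a3r1 (-0.85), Espn (-0.75), Anks4b (-0.46) and Ush1c (-0.32). Villin (Vil1) did not pass (-0.64, edgeR adjusted p = 0.0587). Without the 5 mice, 9 of 17 membrane enzymes and 5 of 15 microvillus genes fell, with medians of -0.54 and -0.23, where 14.7% of all genes fell. Without fat-1 PF replicates 2 and 4 alone, 5 of 17 membrane enzymes and 1 of 15 microvillus genes, Espn, fell (medians -0.95 and -0.42), and in fat-1 mice 4 of 17 and 0 of 15. Of all genes 11.8% fell on average and 7.95% in fat-1 mice in this set. These counts were not tested against those of all genes. Of the 10 tested relatives of the disaccharidases that act elsewhere in the cell or body, of 12 listed, 0 were called by edgeR in the averaged effect, 1 had an unadjusted p under 0.05 and the median was 0.00. Without the 3 mice with large intestine markers 1 of the 10 was called higher, as were 15.9% of all genes. The lowest edgeR adjusted p among them, 0.0538, was that of Klb (log2 change 0.99), and Myorg was not analysed here.

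Among 15 intestinal transcription factors, 3 fell in the averaged EtOH effect (edgeR, median -0.09), a share close to the 17.6% of all genes that fell. Gata4, a factor of the proximal small intestinal epithelium, fell by 7.48 (SE 0.52, adjusted p = 8.44e-06) and was called in WT mice too (-7.39, 0.0027). Gata6 fell by 0.85 and Mlxipl, the carbohydrate response factor ChREBP, by 1.07. Cdx2 and Hnf4a, factors whose motifs were searched above, were not called, at -0.09 and -0.05. Gata4 was at 25.6 to 156.4 CPM in PF mice and at 0 to 1.11 CPM in EtOH-fed mice. Its lowest PF value was that of WT PF replicate 4 and its highest were those of fat-1 PF replicates 2 and 4, the mice with the lowest and the highest Lct. Gata4 is also one of the 8 proximal small intestine genes.

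Gata4 was in addition the gene whose pattern over the 16 mice was most like that of Lct. With each gene's log2 CPM centred on its own mean, the root mean square difference between the 2 was 1.77, where the spread of Lct itself was 5.14. Next to it stood Ugt2a3, Slc23a1, Cyp2b10 and Fabp1, at 1.79 to 1.96. The other disaccharidases were the 106th (Treh), 140th (Sis) and 353rd (Mgam) of 13810 genes by likeness to Lct. Nearest to Sis (spread 1.97) were Soat2, Slc15a1, Abcc2, Gm11127 and Slc43a2, at 0.36 to 0.45, and nearest to Treh (spread 2.41) were Mttp, Cyp3a25, Nat8, Ace and Slc5a11, at 0.37 to 0.49. Nearest to Mgam (spread 1.23) were Slc6a4, Gk, Pepd, Erich4 and Mpp1, at 0.16 to 0.27. Sis was 19th by likeness to Treh and Treh 47th by likeness to Sis. These distances are descriptions over mice that share the diets and the regional differences given above.

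**Figure D5:**
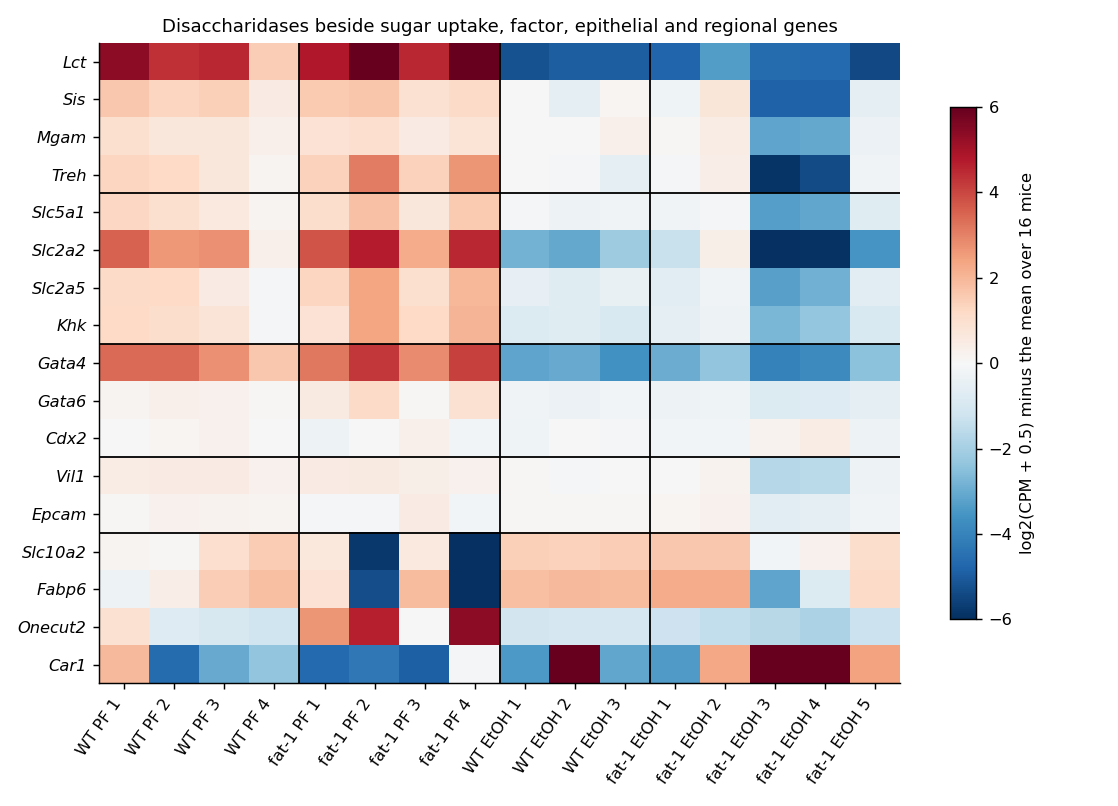
Log2(CPM + 0.5) of the disaccharidase genes and of selected other genes in each mouse, minus each gene's mean over the 16 mice, with colours capped at 6 in either direction. Lct and Gata4 split by diet in all 16 mice, Cdx2 and Epcam stay near 0, and fat-1 EtOH replicates 3 and 4 and fat-1 PF replicates 2 and 4 stand apart in several rows.

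The 7 general epithelial genes did not all move one way. In the averaged effect Krt18 and Krt19, keratins of simple epithelia, rose by 0.48 and 0.44 on the log2 scale (edgeR adjusted p = 0.0102 and 0.0438). Krt20, a keratin of differentiated intestinal epithelium, fell by 0.66 (edgeR adjusted p = 0.00737), and the other 4 did not pass. Of all genes 35.9% were called in this comparison. The Krt19 call was lost without the 3 mice with large intestine markers, without fat-1 PF replicates 2 and 4, and without all 5 (edgeR adjusted p = 0.0678, 0.144 and 0.118). The Krt18 call was lost without fat-1 PF replicates 2 and 4 (0.34, edgeR adjusted p = 0.0527), while Krt20 was called in each of these sets, at -0.54, -0.64 and -0.53. Like Lct, Krt20 was lower in all 8 EtOH-fed mice (1175 to 2604 CPM) than in all 8 PF mice (2775 to 3783 CPM), as were 4.66% of all genes. The summed level of the 7 epithelial genes was 10680 to 15740 CPM in PF mice, 10180 to 14890 CPM in 6 of the EtOH-fed mice, and 9629 and 9560 CPM in fat-1 EtOH replicates 3 and 4. Vil1 was 809 and 873.1 CPM in those 2 mice and 2159 to 3845 CPM in the other 14. The sums of smooth muscle genes were 905.6 to 1434 CPM in PF and 1859 to 4042 CPM in EtOH-fed mice, with all 6 genes called higher in fat-1 mice, as were 18.7% of all genes. In WT mice 0 of the 6 were called by edgeR and all 6 had an unadjusted p under 0.05, with a median log2 change of 0.87. Of all 13811 genes tested, 0.0796% were called there and 1953 had an unadjusted edgeR p under 0.05. Without all 5 mice 5 of 6 were called higher in fat-1 mice and 5 of 6 in WT mice, against 4.27 and 1.65% of all genes. The part of these shifts in the levels of Sis, Mgam and Treh was not tested.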

How the data were processed

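Poly(A) RNA of the ileum of 16 mice was sequenced as stranded libraries. The authors deposited raw read counts for each Ensembl gene, which htseq made after alignment by tophat2 2.0.13 to mm10, guided by Ensembl build 82. Whether htseq counted by strand is not given in the sources used here. Gene positions and exon lengths came from GENCODE M21 (GRCm38), and promoter windows, matched for 4 of 4 genes, from RefSeq.

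Counts were fitted with edgeR 4.0.16 (R 4.3.3). The filterByExpr filter on low counts left 13811 genes, all 4 disaccharidases among them. Libraries were scaled with TMM, and the quasi-likelihood fit (robust) took each of the 4 groups as 1 mean over the 16 mice. P-values were adjusted over all genes tested with the Benjamini-Hochberg method, and a gene was called at 0.05. Intervals are 95% confidence intervals of the fit. CPM were computed over the TMM-scaled library size, and log2 CPM for distances between genes had a prior count of 2. Single genes and ratios were compared with two-sided exact permutation tests, for single genes on log2(CPM + 0.5). DESeq2 1.42.0, limma 3.58.1 voom with quality weights and other scalings, filters and subsets of mice were tried as alternatives. The fit was tested on simulated data.

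The mice are separate animals, so p-values measure the spread between mice, and counting intervals cover counting error only. The members, the lists and the tests were chosen with earlier results of these data known. Genes of a list are named by the size of their averaged EtOH effect among those called, up to 5 a list, or by the lowest adjusted p where none was called. Regional markers, Slc5a1, Slc2a1, Anpep, Dpp4, Vil1, Cdx2, Hnf4a and the other genes in the heat map were chosen after their values were seen. Some results of the transcription factor list and of the motif search are not reported here.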

Additional observations from a re-analysis of the deposited data

Results flagged for a closer look

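Of the 12 sets of 4 or 5 mice examined, 1 held a mouse far from the others, where about 1 in 20 would by chance. Lct of fat-1 EtOH replicate 2 was 2.296 CPM, or 27 reads, while the other 4 mice of the group had 0.171 to 0.656 CPM. The gap to the nearest mouse was 0.772 of the range of the group. The same mouse had the highest Sis (4589 CPM), Mgam (3372 CPM) and Treh (128.5 CPM) of the EtOH-fed mice, and the highest Slc2a2 (53.6 CPM, against 0.164 to 16.2 CPM in the other 7). Its Slc10a2 was 1362 CPM.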

How the results depend on the processing

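The EtOH effects on Lct, Sis, Mgam and Treh were negative under all 26 to 28 alternatives tried for each, in WT mice, in fat-1 mice and on average. The number of the 4 genes called changed more. In WT mice, where 1 was called, 0 were called with at least 10 counts required in every mouse, a filter that removes Lct (0.0% of all genes called), and 2 in a fit of the WT mice alone (8.32%). In fat-1 mice, where 2 were called, 4 were called by DESeq2 (40.3% of all genes) or without the 3 mice with large intestine markers (29.7%). There was 1 call with the filter of 10 counts (Treh, 38.7%), in a fit of the fat-1 mice alone (Lct, 23.2%), or without fat-1 PF replicates 2 and 4 (Lct, 13.9%). For the averaged effect, also 2, there were 4 calls by DESeq2 (39%), by limma voom (42.2%), and without the 3 or all 5 mice that stood apart (32.9 and 27.6%). There was 1 call with a filter of at least 1 count in any mouse (Lct, 26.4%), with the filter of 10 counts (Treh, 37.4%), or without fat-1 PF replicates 2 and 4 (Lct, 23.9%). Upper-quartile scaling moved the effects in fat-1 mice toward 0, that of Mgam to -1.22 and that of Treh to -2.82, with the same number of calls. Leaving out 1 mouse in turn gave 0 to 1 calls in WT mice, 1 to 4 in fat-1 mice and 1 to 4 on average. Of all genes, 0 to 0.479%, 28.5 to 39.4% and 26.9 to 38.1% were called in these fits. Apart from the filter of 10 counts, the cause of these changes was not tested.

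Differences between genotypes that were not called turned their sign in some settings. Without the 3 mice with large intestine markers and without all 5 mice, the genotype effect in EtOH-fed mice was 0.0107 and 0.0022 for Sis and 0.3482 and 0.3424 for Treh. Without all 5 mice that of Mgam in PF mice was -0.0006. Leaving out 1 mouse in turn gave -0.082 to 0.23 for Sis in PF mice and -0.91 to 0.35 for the interaction of Lct. The interaction of Lct was 0.1193 with the replicate block, 0.2194 without the 3 mice, 1.0121 without fat-1 PF replicates 2 and 4, and 1.3413 without all 5.

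Mice with the same replicate number did not deviate together. Over 21 such pairs the deviations from the group means correlated at a mean of -0.0225, against 0.00703 over 74 other pairs. With the replicate number as a block, 3 of the 4 genes were called on average (Sis at -2.13, edgeR adjusted p = 0.0467), 2 for fat-1 and 1 for WT mice, where 35.0, 34.4 and 0.13% of all genes were, and none in the genotype comparisons or the interaction.

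Over all genes, the calls ranged from 0 to 2800 in WT mice (11 in the main test), 1626 to 5659 in fat-1 mice (5170), 3373 to 5828 on average (4955) and 0 to 189 between PF groups (0). The intervals of Sis and Mgam show the precision that 3 to 5 mice per group gave. Lct of EtOH-fed mice rests on 2 to 27 reads per mouse.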

Other observations

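Genes of other cell types of the ileum were summed per mouse. The summed level of 5 goblet cell genes was 10140 to 14650 CPM in PF and 11090 to 16480 CPM in EtOH-fed mice. That of 5 Paneth cell genes was 6474 to 25320 CPM in PF mice and 8780 to 17780 CPM in 6 EtOH-fed mice, and 100.3 and 108.3 CPM in fat-1 EtOH replicates 3 and 4, the mice with the lowest Sis and Mgam. The 5 genes of the proliferating crypt summed to 524.3 to 796.4 CPM in PF mice, to 447.1 to 975.9 CPM in those 6 EtOH-fed mice, and to 220.1 and 211.9 CPM in the same 2 mice. The 8 lymphoid genes summed to 738.4 CPM in fat-1 EtOH replicate 5, against 15.7 to 161.1 CPM in the other 15 mice. Stromal genes summed to 230.4 to 350.7 CPM in PF and 318.8 to 505.3 CPM in EtOH-fed mice. The ileal enterocyte genes summed to 647.7 to 7566 CPM in PF and 973.8 to 9357 CPM in EtOH-fed mice.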
